A study of Mus musculus with 11 samples.

Results

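The 8 genes Dnmt1, Uhrf1, Dnmt3a, Dnmt3b, Dnmt3l, Tet1, Tet2 and Tet3 encode enzymes that write, copy or oxidise DNA methylation, or cofactors of them. The peaks described here are all those in the 10 deposited lists whose midpoint fell within the gene body of 1 of these genes or within 50 kb on either side of it on the mouse build mm9. In all, 697 peaks were found among the 1004445 peaks of the 10 lists. Epiblast stem cells (EpiSCs) of mouse strain 129/Sv were the source, and the TFs mapped by ChIP-seq were POU3F1, POU5F1, SOX2, OTX2 and ZIC2. Each TF carried the biotin acceptor sequence BLRP, and the pCAGGS promoter drove both the TF and the ligase BirA after transient transfection, so that streptavidin recovered the introduced protein and not the endogenous one. The EpiSC culture had activin at 20 ng/ml and Fgf2 at 10 ng/ml, and in the activin-free EpiSC culture activin was left out for the 18 h before harvest, with no separate Fgf2 dose given in the labels. Each TF was profiled in 1 library per culture, which leaves every value without a replicate error and every difference between TFs or cultures untested. A peak carries a score, the p-value of MACS on the scale of -10 log10, with 50 as the lowest value and many entries at 3100. The lists hold no reads, so the depth behind the scores is unknown, and intervals given below cover counting error only.

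In the early embryo, DNMT3A and DNMT3B place methyl groups on unmethylated CG sites, and DNMT3L, which has no catalytic activity of its own, stimulates them. DNMT1 copies the marks to the daughter strand at replication, where UHRF1 recruits it to hemimethylated DNA. The TET proteins oxidise methylated cytosine and so start its removal. Epiblast cells are known for a rise of de novo methylation at the exit from naive pluripotency, with high Dnmt3b, and EpiSCs are derived from the epiblast after implantation.

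The sequences below show 4 kinds of DNA under the peaks, read from mm9 on the plus strand, and they were chosen after the values were seen. The first set gives the copy of the OTX2 letters GGATTA (on the minus strand TAATCC), in capitals, that lay nearest the midpoint of the highest-scoring OTX2 peak with such a copy, at Dnmt3b, where it stood outside a repeat-like run, and at Tet1 and Tet2, where it stood inside one.
Dnmt3b upstream (chr2:153465744-153465863): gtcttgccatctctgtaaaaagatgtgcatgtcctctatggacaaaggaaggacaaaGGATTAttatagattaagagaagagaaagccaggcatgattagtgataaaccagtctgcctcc
Tet1 intron (chr10:62310702-62310821): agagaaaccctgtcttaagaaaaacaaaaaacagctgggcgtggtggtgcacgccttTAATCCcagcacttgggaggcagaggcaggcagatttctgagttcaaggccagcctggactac
Tet2 intron (chr3:133196356-133196475): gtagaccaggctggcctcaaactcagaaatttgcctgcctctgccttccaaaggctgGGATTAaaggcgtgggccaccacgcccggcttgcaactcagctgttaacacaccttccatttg

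The second set shows the alternating purine and pyrimidine runs, in capitals, of the highest-scoring POU5F1 peaks near 2 genes. Their lengths were 46 bp at Dnmt3b and 45 bp at Tet2. The highest-scoring POU5F1 peaks of other genes had runs of 44 bp at Tet1, 39 bp at Dnmt3l and 26 bp at Dnmt1. Those of Dnmt3a and Tet3 had no run of at least 20 bp.
Dnmt3b upstream (chr2:153470437-153470542): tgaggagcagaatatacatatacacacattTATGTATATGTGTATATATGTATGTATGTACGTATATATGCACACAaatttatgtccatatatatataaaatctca
Tet2 upstream (chr3:133238919-133239023): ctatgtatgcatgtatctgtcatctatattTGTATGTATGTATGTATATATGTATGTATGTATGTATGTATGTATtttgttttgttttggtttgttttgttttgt

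The third set gives 151 bp around the 5' TSS (the annotated start of the gene span) of 2 de novo methylation genes that a ZIC2 peak covered, with CG dinucleotides, the substrate of these enzymes, in capitals. There were 25 of them at Dnmt3b and 0 at Dnmt3l, the highest and lowest values among the genes with such a peak. The others had 22 at Tet2, 17 at Tet3, 13 at Dnmt1, 7 at Uhrf1 and 1 at Dnmt3a, which is also a de novo gene. At Dnmt3a this start lay at the edge of the ZIC2 peak, whose midpoint was 1.57 kb away in EpiSCs and 1.59 kb in activin-free EpiSCs. The GC content within 100 bp of that midpoint was 82.6% and 84.1%. Further annotated starts of Dnmt3a lay under the same peak, and CG dinucleotides were not counted there.
Dnmt3b start (chr2:153475111-153475261): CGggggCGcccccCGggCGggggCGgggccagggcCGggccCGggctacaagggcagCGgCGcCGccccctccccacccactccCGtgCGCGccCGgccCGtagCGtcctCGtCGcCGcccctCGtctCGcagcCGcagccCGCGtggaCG
Dnmt3l start (chr10:77504617-77504767): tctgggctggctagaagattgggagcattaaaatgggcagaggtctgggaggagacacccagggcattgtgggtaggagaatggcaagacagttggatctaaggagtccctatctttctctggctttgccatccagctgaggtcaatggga

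The last set gives the bases that peaks of 3 or 4 TFs shared. At Dnmt3b the shared stretch of ZIC2, OTX2 and POU5F1 in EpiSCs held none of the letters searched for these TFs. In the Tet1 window, the stretch shared by ZIC2, OTX2, SOX2 and POU3F1 in activin-free EpiSCs held 1 copy of the OTX2 letters, in capitals. This copy also stood inside a repeat-like run, TAATCCCAG.
Dnmt3b upstream (chr2:153469298-153469389): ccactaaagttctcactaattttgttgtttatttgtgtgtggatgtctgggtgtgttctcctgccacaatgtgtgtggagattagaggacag
Tet1 window at the Ccar1 start (chr10:62255236-62255534): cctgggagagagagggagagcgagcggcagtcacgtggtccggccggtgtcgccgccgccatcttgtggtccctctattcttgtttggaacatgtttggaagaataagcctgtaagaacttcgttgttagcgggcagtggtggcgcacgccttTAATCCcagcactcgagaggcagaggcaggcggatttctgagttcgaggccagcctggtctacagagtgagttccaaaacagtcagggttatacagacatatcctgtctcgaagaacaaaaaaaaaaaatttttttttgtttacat

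ZIC2 and OTX2 made up most of the peaks at the 8 genes, whereas SOX2, POU5F1 and POU3F1 had few. The EpiSC lists gave 225 ZIC2, 106 OTX2, 15 SOX2, 6 POU5F1 and 1 POU3F1 peaks, and the activin-free lists gave 213, 88, 26, 15 and 2, respectively. Because the windows differ in length, the counts were divided by window length and compared with all 22367 protein-coding genes. ZIC2 peaks were 1.97 times as dense as in all gene windows in EpiSCs (95% interval 1.72 to 2.25) and 2.06 times in activin-free EpiSCs (1.79 to 2.36). For OTX2 the ratios were 1.28 (1.05 to 1.54) and 1.14 (0.913 to 1.4), the second with an interval that included equal density. SOX2 was at 0.544 (0.304 to 0.897) and 0.687 (0.449 to 1.01), and POU5F1 at 0.228 (0.0838 to 0.497) and 0.292 (0.164 to 0.482). POU3F1 had the lowest values, with 0.0295 in EpiSCs and 0.0648 in activin-free EpiSCs, although its lists held 112753 and 101989 peaks. Thus the order of the TFs was the same in both cultures.

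**Figure D1:**
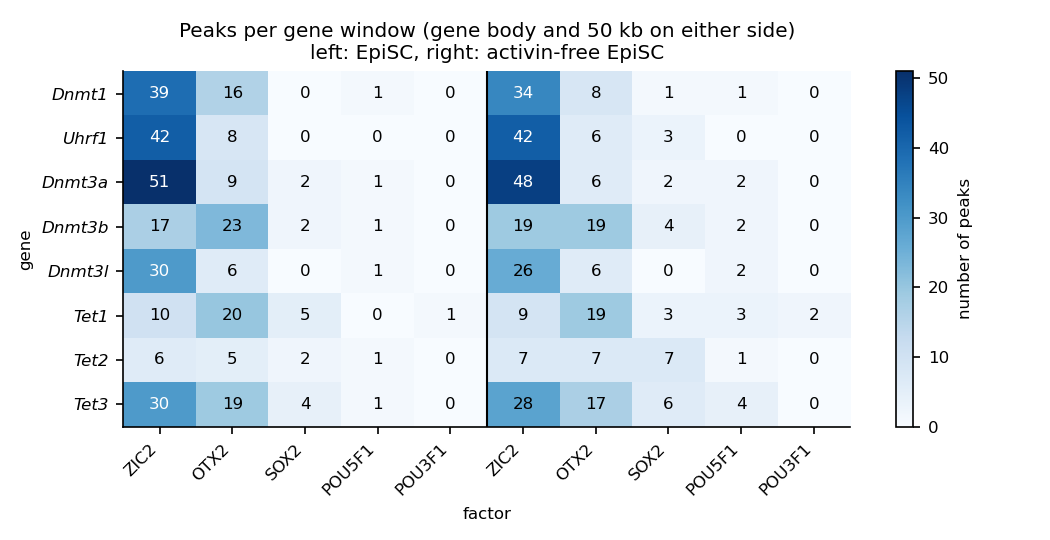
Number of peaks per gene window (rows) and TF (columns), with EpiSCs on the left and activin-free EpiSCs on the right; a darker cell is a higher number. ZIC2 ranges from 6 peaks at Tet2 to 51 at Dnmt3a in EpiSCs, and the POU3F1 columns are at 0 except at Tet1.

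A window with at least 1 peak is common in these lists, so the presence of a peak says little by itself. All 8 genes had a ZIC2 peak in both cultures, against 93.1% of all genes in EpiSCs and 92.3% in activin-free EpiSCs. All 8 also had an OTX2 peak, against 93.3% and 95.6%. SOX2 peaks were found at 5 of 8 genes in EpiSCs (all genes 75.0%) and 7 of 8 in activin-free EpiSCs (85.6%). POU5F1 peaks were at 6 of 8 (77.3%) and 7 of 8 (89.5%). POU3F1 peaks were at 1 of 8 (47.8%) and again 1 of 8 (53.0%), that is, at Tet1 in both cultures.

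The genes differed widely in ZIC2 and OTX2 density, and base composition moved with the former. In EpiSCs the ZIC2 density per 100 kb was 35.0 at Uhrf1, 26.8 at Dnmt1, 24.7 at Dnmt3l, 24.5 at Dnmt3a, 16.7 at Tet3, 12.3 at Dnmt3b, 5.14 at Tet1 and 3.32 at Tet2. The median of all genes was 6.80, so Tet1 and Tet2 lay below it and the other 6 above it in the EpiSC list. The GC content of the windows was 51.8% at Uhrf1, 50% at Dnmt1, 49.7% at Dnmt3l, 49.2% at Dnmt3a, 47.7% at Tet3, 46.7% at Dnmt3b, 43.5% at Tet1 and 41.9% at Tet2, against a median of 44.3% over all genes. This is the same order as that of the EpiSC ZIC2 densities, and the part of GC content in them was not tested. Counting intervals of neighbours in this order overlapped, as at Uhrf1 (25.2 to 47.2) and Dnmt1 (19 to 36.6). OTX2 gave another order. Its EpiSC density was highest at Dnmt3b, with 16.6 per 100 kb (10.5 to 25), followed by 11.0 at Dnmt1, 10.6 at Tet3, 10.3 at Tet1, 6.66 at Uhrf1, 4.93 at Dnmt3l, 4.32 at Dnmt3a and 2.77 at Tet2, with a median of 6.21 over all genes.

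**Figure D2:**
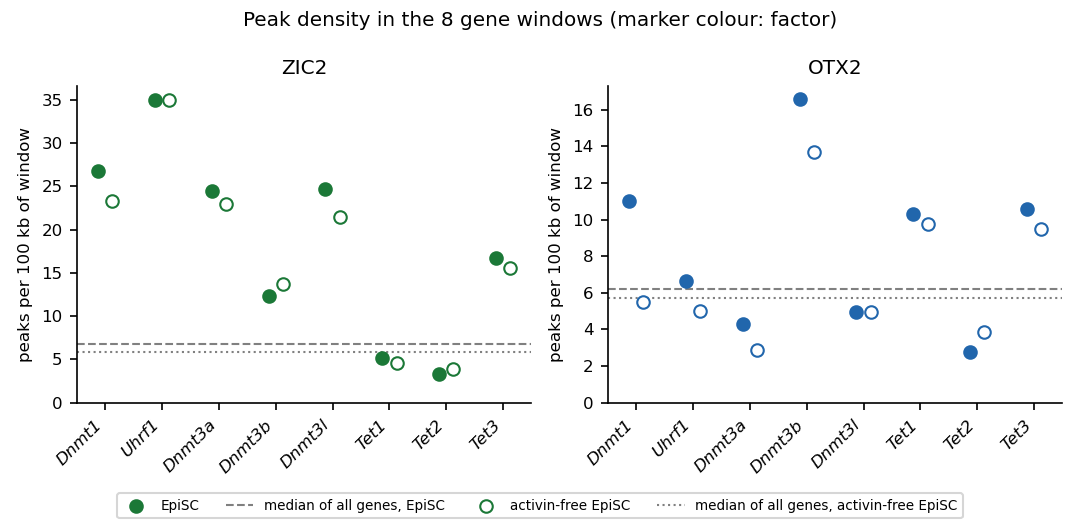
Peaks per 100 kb of window for ZIC2 (left) and OTX2 (right) at each gene, with filled circles for EpiSCs, open circles for activin-free EpiSCs and lines for the medians of all protein-coding genes. ZIC2 reaches 35.0 at Uhrf1 in both cultures, and OTX2 is highest at Dnmt3b, at 16.6 and 13.7.

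ZIC2 peaks covered the 5' TSS of 7 of the 8 genes in EpiSCs, and the same 7 genes in activin-free EpiSCs. Over all genes this share was 61.6% and 59.8%. The exception was Tet1. Scores of these peaks, EpiSC first, were 977.4 and 2073 at Dnmt1, 1457 and 1308 at Uhrf1, 3100 and 3100 at Dnmt3a, 1324 and 1479 at Dnmt3b, 777.4 and 754.0 at Dnmt3l, 1296 and 2565 at Tet2, and 3100 and 3100 at Tet3. Dnmt3l had the lowest score in both cultures, and its peak also lay within 1 kb of a TSS of the neighbouring Aire, the autoimmune regulator gene. OTX2 covered the 5' TSS of 0 of 8 genes in either culture, against 9.52% and 9.10% of all genes.

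When every annotated TSS of a gene was taken and a midpoint within 1 kb was asked for, ZIC2 was found at 8 of 8 genes in EpiSCs (all genes 67.6%) and 7 of 8 in activin-free EpiSCs (66.6%). The loss was that of Tet3, where the midpoint of a peak of score 3100 moved from 0.893 to 1.16 kb from the 5' TSS while the peak covered that TSS in both cultures. OTX2 was at 2 of 8 (29.1%) and 1 of 8 (24.2%), all at TSSs inside the genes. These were Dnmt3b and Tet2 in EpiSCs and Tet1 in activin-free EpiSCs. SOX2 was at 0 of 8 in both cultures (8.05% and 12.8%), and so was POU3F1 (5.58% and 6.21%). POU5F1 was at 1 of 8 in EpiSCs (4.74%), by a peak of score 67.39 at Dnmt3a, and at 0 of 8 in activin-free EpiSCs (9.09%). In total there were 11 pairs of gene and TF in EpiSCs and 8 in activin-free EpiSCs, of which the 5' TSS alone gave 5 and 5.

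Dnmt1, the maintenance methyltransferase gene, lies on chromosome 9 from 20711650 to 20757317 on the minus strand (ENSMUSG00000004099.8). In EpiSCs its window held 39 ZIC2, 16 OTX2, 0 SOX2, 1 POU5F1 and 0 POU3F1 peaks, and in activin-free EpiSCs 34, 8, 1, 1 and 0. This was the largest fall in OTX2 count among the 8 genes. All 8 activin-free OTX2 peaks overlapped an EpiSC peak, whereas 9 of the 16 EpiSC peaks overlapped an activin-free one. The OTX2 peak with the highest score, 376.5 in EpiSCs and 357.0 in activin-free EpiSCs, lay at -48.1 kb from the TSS (minus for upstream) in EpiSCs. Most peaks of the window lay closer to other genes, and 7 of the 39 EpiSC ZIC2 peaks were nearest the Dnmt1 TSS. The strongest of all, chr9:20779603-20781797 with scores of 3090 and 3100, lay in S1pr2, a sphingosine phosphate receptor gene, within 1 kb of its TSS. The peak over the Dnmt1 TSS ranked below it, with 90.5% and 94.5% of the ZIC2 lists at lower scores.

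Uhrf1, which encodes the partner that brings DNMT1 to hemimethylated DNA, lies on chromosome 17 from 56442744 to 56462909 on the plus strand (ENSMUSG00000001228.8). Its window held 42 ZIC2 and 8 OTX2 peaks in EpiSCs and 42 ZIC2, 6 OTX2 and 3 SOX2 peaks in activin-free EpiSCs, with no POU5F1 or POU3F1 peak in either. The ZIC2 density of 35.0 per 100 kb exceeded that of 99.4% of all genes in EpiSCs and 99.6% in activin-free EpiSCs. However, 3 of the 42 ZIC2 peaks in each culture were nearest a TSS of Uhrf1, and 0 of the OTX2 peaks were. The window also holds all or part of Fem1a, Ticam1, Plin3, Arrdc5 and Kdm4b, and the highest ZIC2 scores, 2831 and 3100 at chr17:56487247-56491787 in EpiSCs and its activin-free counterpart, lay in Kdm4b, a histone demethylase gene. In activin-free EpiSCs a peak in Ticam1 also had a score of 3100. Of the 8 EpiSC OTX2 peaks 6 overlapped a ZIC2 peak, and of the 6 activin-free ones 5 did. Peaks of ZIC2, OTX2 and SOX2 shared bases at 2 sites, at -14.7 and -12.1 kb, in activin-free EpiSCs only, where the SOX2 scores were 77.03 and 55.59.

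Dnmt3a, a de novo methyltransferase gene, lies on chromosome 12 from 3806007 to 3914443 on the plus strand (ENSMUSG00000020661.9) and has 18 distinct TSSs. It had the most ZIC2 peaks, 51 in EpiSCs and 48 in activin-free EpiSCs, of which 36 and 33 lay in the gene body. In contrast to Uhrf1, 40 and 38 of them were nearest a TSS of the gene itself. The peak over the 5' TSS, chr12:3805832-3809323 in EpiSCs, spanned 3492 bp, and its score was 3100 in both cultures. Another, of scores 1620 and 2786, lay in the 3' UTR. OTX2 had 9 and 6 peaks, below the median density of all genes in both cultures. SOX2 had 2 peaks in each culture, at the same intron sites, with scores of 69.85 and 147.0 in EpiSCs and 91.18 and 248.3 in activin-free EpiSCs. POU5F1 had 1 and 2 peaks with scores from 50.44 to 67.39, none of them overlapping between cultures. The ZIC2 peak with the highest score among those of 1 culture only, 228.6 in EpiSCs, lay in an intron at chr12:3823012-3824169.

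Dnmt3b, the de novo methyltransferase gene best known for its high activity in the epiblast, lies on chromosome 2 from 153475186 to 153513466 on the plus strand (ENSMUSG00000027478.9). It was the gene with the highest OTX2 density, with 23 peaks in EpiSCs and 19 in activin-free EpiSCs, above 96.4% and 95.8% of all genes. Of these OTX2 peaks, 11 and 8 were nearest a TSS of Dnmt3b, and the others were nearer another gene. ZIC2 had 17 and 19 peaks, of which 7 and 7 were nearest a TSS of Dnmt3b. SOX2 had 2 and 4 peaks, POU5F1 1 and 2, and POU3F1 0 and 0. From 10 to 3 kb upstream of the TSS, 4 TFs had peaks in both cultures. The OTX2 peak at chr2:153465138-153466277, at -9.48 kb, had a score of 597.4 in EpiSCs and its activin-free counterpart had 1090, with 98.6% and 99.2% of the lists at lower scores. At -7.47 kb in EpiSCs, SOX2 had a peak of scores 261.7 and 562.9 that overlapped ZIC2. Closer to the gene, at chr2:153469298-153469389, a ZIC2 peak of score 617.8, an OTX2 peak and a POU5F1 peak of score 283.4 shared 92 bp in EpiSCs, and the same 3 TFs shared 66 bp there in activin-free EpiSCs. Only this site of the 8 windows had peaks of 3 TFs sharing bases in both cultures. How often the windows of all genes hold such a site was not counted. The EpiSC and activin-free stretches overlapped only in part, from 153469298 to 153469312. The shared bases were the edges of longer peaks. In EpiSCs the ZIC2 peak spanned 153467405 to 153469389 and the OTX2 peak 153469298 to 153470261. In activin-free EpiSCs the ZIC2 peak ended at 153469312 and the POU5F1 peak began at 153469247. In activin-free EpiSCs a SOX2 peak of score 107.6 joined ZIC2 and OTX2 at -9.98 kb. The ZIC2 density of the window lay above that of 67.5% and 74.7% of all genes.

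**Figure D3:**
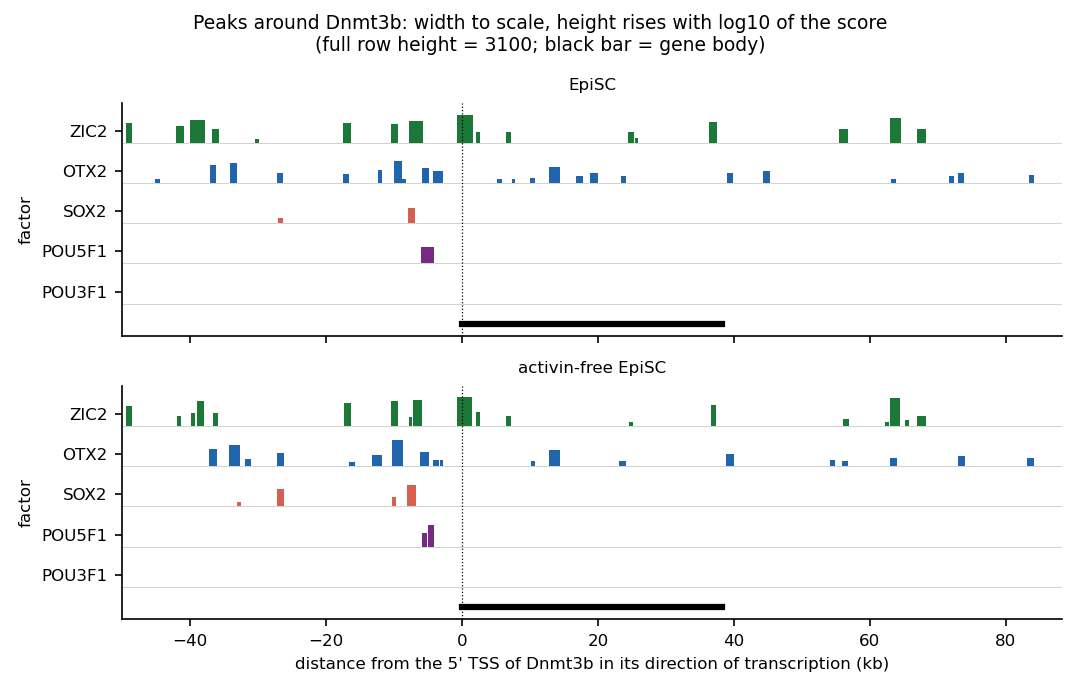
Peaks around Dnmt3b by TF (rows) and distance from its 5' TSS in kb (horizontal axis), with EpiSCs above and activin-free EpiSCs below; box width is peak width, box height rises with log10 of the score, and the black bar is the gene body. OTX2 boxes spread over the window, and ZIC2, OTX2, SOX2 and POU5F1 boxes gather from 10 to 3 kb upstream in both cultures.

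Dnmt3l, whose product stimulates the de novo enzymes, lies on chromosome 10 from 77504692 to 77526367 on the plus strand (ENSMUSG00000000730.7). Its window held 30 and 26 ZIC2 peaks and 6 and 6 OTX2 peaks, no SOX2 or POU3F1 peak, and 1 and 2 POU5F1 peaks. The window also holds all or part of Pfkl, Aire and Icosl. Only 2 of the 30 EpiSC ZIC2 peaks and 3 of the 26 activin-free ones were nearest a TSS of Dnmt3l, and no OTX2 peak was. The highest ZIC2 scores, 1165 and 1370, lay in Icosl, a T cell costimulator gene, within 1 kb of its TSS. The POU5F1 peak at 69.4 kb from the 5' TSS, downstream of the gene, had a score of 71.76 in EpiSCs and 847.4 in activin-free EpiSCs, with 21.6% and 82.4% of the lists at lower scores. This was the highest POU5F1 score near the 8 genes.

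Tet1, the dioxygenase gene that is highly expressed in pluripotent cells, lies on chromosome 10 from 62267318 to 62361866 on the minus strand (ENSMUSG00000047146.8). Here OTX2 outnumbered ZIC2, with 20 OTX2 against 10 ZIC2 peaks in EpiSCs and 19 against 9 in activin-free EpiSCs. SOX2 had 5 and 3 peaks, POU5F1 0 and 3, and POU3F1 1 and 2. No ZIC2 or OTX2 peak covered either of its 2 upstream TSSs, at 62361866 and 62342762. The ZIC2 peak counted at a Tet1 TSS, of scores 876.7 and 995.5, lay at an internal start, at 62328052. Both of the highest OTX2 peaks lay in introns, at 54.4 kb from the 5' TSS with scores of 445.5 and 596.2 and at 51.6 kb with 441.4 and 710.5. The highest ZIC2 peak of the gene body lay 12.3 kb from the 5' TSS, with scores of 1243 and 1202, and overlapped an OTX2 peak in both cultures. Of the SOX2 peaks, the one with scores of 307.0 and 626.6 lay within Ccar1, a gene for a regulator of the cell cycle and apoptosis.

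**Figure D4:**
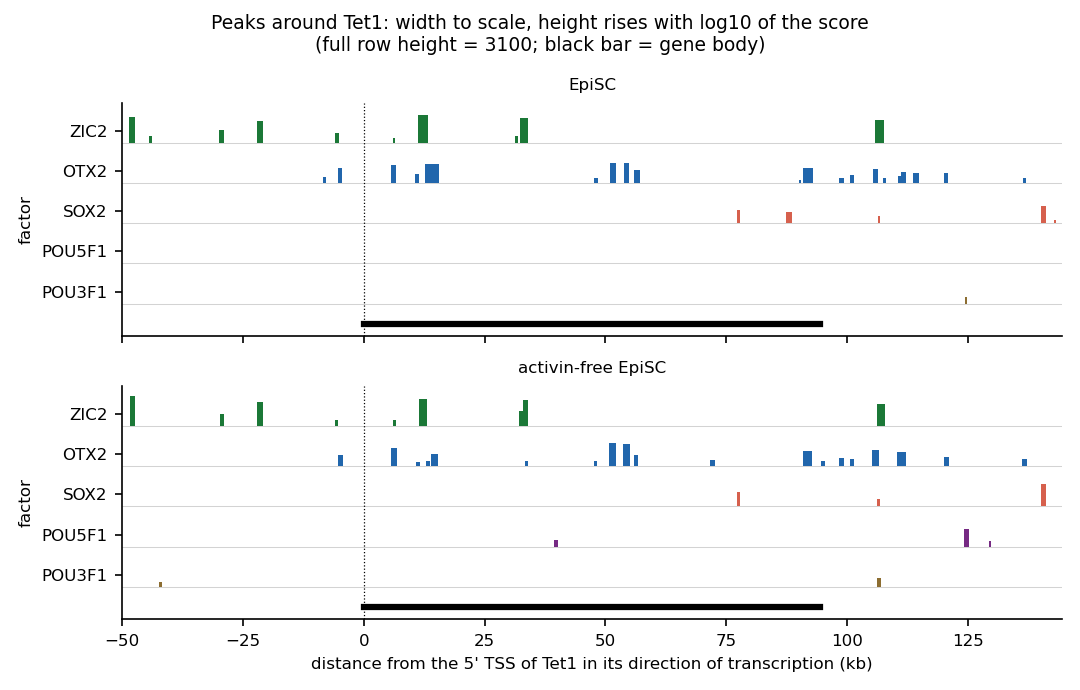
Peaks around Tet1, drawn as for Dnmt3b, with distance from the 5' TSS in kb on the horizontal axis, EpiSCs above and activin-free EpiSCs below. No box stands on the dotted line at the 5' TSS, and the highest OTX2 boxes are at 51.6 and 54.4 kb within the gene.

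All 3 POU3F1 peaks near the 8 genes were in the Tet1 window, and none was shared between cultures. The EpiSC peak, in an intron of Ccar1 with a score of 75.93, lay where POU5F1 had an activin-free peak of score 339.2. In activin-free EpiSCs 1 POU3F1 peak of score 101.2 lay at the Ccar1 TSS and overlapped peaks of ZIC2, OTX2 and SOX2, whose shared stretch of 299 bp is printed above. The other one, in Slc25a16, had a score of 64.73. All 3 were low in their lists, with between 9.58% and 25.3% of peaks at lower scores.

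Tet2, the dioxygenase gene best known from blood cells, lies on chromosome 3 from 133126643 to 133207354 on the minus strand (ENSMUSG00000040943.7), and its window holds no other protein-coding gene. It had the fewest ZIC2 peaks in both cultures, 6 and 7. Its OTX2 peaks, 5 and 7, were the fewest of the 8 genes in EpiSCs but not in activin-free EpiSCs. The ZIC2 peak over the 5' TSS, with scores of 1296 and 2565, stood above the other ZIC2 peaks of the window, the next of which reached 321.3 and 375.0. No OTX2 peak overlapped ZIC2 in EpiSCs, and 1 did in activin-free EpiSCs. SOX2 went from 2 to 7 peaks, of which 1 overlapped between cultures, and their scores were from 51.65 to 139.6. POU5F1 had 1 peak in each culture at the same site, with scores of 68.03 and 140.2.

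Tet3, the dioxygenase gene active in the zygote and in neural cells, lies on chromosome 6 from 83312367 to 83391672 on the minus strand (ENSMUSG00000034832.8). Its window held 30 ZIC2, 19 OTX2, 4 SOX2, 1 POU5F1 and 0 POU3F1 peaks in EpiSCs, and 28, 17, 6, 4 and 0 in activin-free EpiSCs. ZIC2 had 2 peaks here with scores of at least 3100, one over the 5' TSS and one at -14.6 kb, chr6:83404588-83407889 with scores of 3116 and 3100. The highest OTX2 peaks lay outside the gene. One was downstream, at 118 kb from the 5' TSS, with scores of 560.7 and 500.9, and one at -6.1 kb, with 497.3 and 650.2. Of the 19 and 17 OTX2 peaks, 9 and 7 were nearest a TSS of Tet3. In an intron 19.7 kb from the 5' TSS, a SOX2 peak of score 185.8, found in activin-free EpiSCs only, overlapped ZIC2 and OTX2 peaks that were present in both cultures. All 4 EpiSC SOX2 peaks overlapped activin-free ones.

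OTX2 peaks at the 8 genes overlapped ZIC2 peaks more often than in the whole OTX2 list, whereas the reverse share was near that of the list. In EpiSCs 36 of 106 OTX2 peaks, or 34.0% (25.6 to 43.4), shared at least 1 bp with a ZIC2 peak, against 17.8% of all OTX2 peaks. In activin-free EpiSCs this was 27 of 88, or 30.7% (22.0 to 41.0), against 12.0%. In the other direction, 34 of 225 ZIC2 peaks (15.1%) overlapped OTX2 in EpiSCs against 14.8% in the list, and 31 of 213 (14.6%) in activin-free EpiSCs against 12.7%. The higher ZIC2 density of the windows moves with the former share, and its part was not tested. Of the 6 EpiSC and 15 activin-free POU5F1 peaks, 0 and 0 overlapped POU3F1, against 51.7% and 46.3% of all POU5F1 peaks. However, the windows held only 1 and 2 POU3F1 peaks, and their POU3F1 density was the lowest of the 5 TFs. A share near that of the list was therefore out of reach, and the 0 adds nothing about POU5F1 itself. The upper bounds, 39.0% and 20.4%, do not take this into account.

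Most ZIC2 and OTX2 peaks were found in both cultures, and those that were not had lower median scores. Of the EpiSC peaks, 193 of 225 ZIC2 peaks (85.8%) overlapped an activin-free one, against 78.9% of the list, and 75 of 106 OTX2 peaks (70.8%) against 78.1%. Of the activin-free peaks, 201 of 213 ZIC2 peaks (94.4%) overlapped an EpiSC one, against 91.2%, and 72 of 88 OTX2 peaks (81.8%) against 67.5%. The 31 EpiSC OTX2 peaks without a counterpart had a median score of 64.12, and the 75 with one had 149.2. For ZIC2 the medians were 72.75 over 32 peaks and 295.5 over 193. SOX2 and POU5F1 had more peaks in activin-free EpiSCs, and many of these had no EpiSC counterpart. Their whole lists were also longer in activin-free EpiSCs, with 87907 against 63751 peaks for SOX2 and 126908 against 62457 for POU5F1. For SOX2, 12 of 15 EpiSC peaks (80.0%) were shared against 77.6% of the list, but 12 of 26 activin-free peaks (46.2%) against 55.9%. For POU5F1, 5 of 6 EpiSC peaks (83.3%) were shared against 98.3%, and 6 of 15 activin-free peaks against 47.1%.

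**Figure D5:**
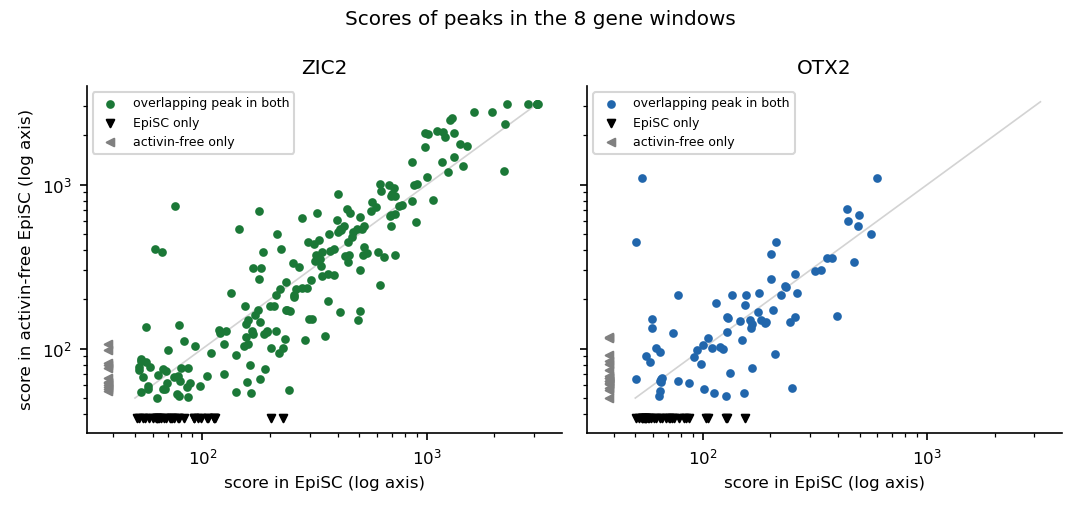
Score of each ZIC2 (left) and OTX2 (right) peak of the 8 windows in EpiSCs (horizontal log axis) and of the overlapping peak in activin-free EpiSCs (vertical log axis); triangles at the margins are peaks of 1 culture only and the line marks equal scores. Peaks of 1 culture only reach 228.6 for ZIC2 and 153.8 for OTX2, far below the highest shared peaks.

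The number of peaks near the 8 genes was also set against the length of each list, since the lists differ in length between cultures. OTX2 had fewer peaks at the 8 genes in activin-free EpiSCs, 88 against 106, whereas its list was longer, 114041 against 103281, which gave a log2 ratio of -0.41 (95% interval -0.836 to 0.0100). The ratio of ZIC2 was 0.08 (-0.197 to 0.357) and that of SOX2 0.33 (-0.641 to 1.35). POU5F1 gave 0.30 (-1.15 to 1.95), and POU3F1 1.14 (-3.12 to 7.03) from 2 peaks against 1. All 5 intervals included 0. They treat the 2 counts as independent, although many peaks of ZIC2, OTX2, SOX2 and POU5F1 were shared between cultures. They therefore do not measure the error of the change and decide nothing about it. With a score of at least 100 the SOX2 ratio was -0.13, and with a flank of 20 kb that of POU5F1 was -0.02, whereas OTX2 stayed below 0 in each setting tried. The fall in OTX2 came from Dnmt1 (16 to 8), Dnmt3b (23 to 19), Dnmt3a (9 to 6), Uhrf1 (8 to 6), Tet3 (19 to 17) and Tet1 (20 to 19), while Dnmt3l had 6 in both and Tet2 went from 5 to 7.

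Letters known from the binding sites of ZIC2, OTX2 and SOX2 were about as frequent near the midpoints of these peaks as in the whole lists, and for ZIC2 and OTX2 more frequent than 1000 bp to either side. They were searched for on both strands within 100 bp of the midpoint. OTX2 peaks held GGATTA in 28.3% in EpiSCs and 22.7% in activin-free EpiSCs, against 23.6% and 21.8% of the lists and 10.8% and 7.95% of the flanks of the same peaks. ZIC2 peaks held CAGCAGG or CCCGCTG in 20.9% and 26.3%, against 22.0% and 24.3% of the lists and 8.89% and 8.92% of the flanks. SOX2 peaks held ACAATG or ACAAAG in 8 of 15 and 13 of 26, against 57.4% and 55.5% of the lists and 36.7% and 32.7% of the flanks, which lay within the intervals of the peaks (30.1 to 75.2 and 32.1 to 67.9).

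Part of the GGATTA copies stood within TAATCCCAG or its reverse complement, a run known from the short B1 repeats of the mouse and searched after the peaks had been seen, as in the Tet1 and Tet2 stretches printed above. This run was found near the midpoint of 10 of the 106 EpiSC OTX2 peaks (9.43%) and 6 of the 88 activin-free ones (6.82%), against 4.45% and 3.33% of the lists and 6.60% and 5.68% of the flanks of the same peaks. Copies outside the run were found in 19.8% (13.3 to 28.4) and 17.0% (10.6 to 26.2) of the peaks, against 19.7% and 18.9% of the lists and 4.25% and 2.27% of the flanks. The Dnmt3b stretch printed above holds a copy of that second kind.

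The octamer letters ATGCAAAT or ATGCATAT were also searched for in the POU5F1 peaks at the 8 genes. They were within 100 bp of the midpoint in 0 of 6 EpiSC peaks (0 to 39.0%) and 1 of 15 activin-free peaks (1.19 to 29.8%). These intervals included the shares of the lists, 18.6% and 13.6%, so the few peaks do not set the 8 genes apart. A run of alternating purines and pyrimidines of at least 20 bp was found in 4 of 6 and 10 of 15 peaks, against 45.5% and 39.9% of the lists, and the longest, of 122 bp, lay downstream of Tet3. Such runs are a kind of simple repeat, and their part in the peaks was not tested.

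Other genes of DNA methylation and demethylation formed a list of 34 that includes Tdg, Mbd4, Hells, Trim28, Zfp57 and Dppa3. They differed from the 8 genes in median ZIC2 density. The median ZIC2 density over them was 7.14 per 100 kb in EpiSCs and 6.35 in activin-free EpiSCs, near the medians of all genes, 6.80 and 5.86, whereas the medians of the 8 genes were 20.6 and 18.5. Base composition, which moved with ZIC2 density among the 8 genes, was not compared between these lists. For OTX2 the medians over the 34 genes were 8.62 and 7.60, against 6.21 and 5.72 over all genes. A ZIC2 midpoint within 1 kb of a TSS was found at 32 and 30 of the 34 genes, against 67.6% and 66.6% of all genes, and an OTX2 one at 16 and 14, against 29.1% and 24.2%. POU3F1 peaks were found in 15 and 17 of the 34 windows, near the 47.8% and 53.0% of all genes.

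The genes whose 10 densities ranked most like those of a member were found by Spearman's correlation over the 10 lists, which is a description, since the lists of a TF in the 2 cultures are much alike. For Tet1 the closest gene was Ldlrad3 (rho 1.000) and for Tet2 it was Usp40 (0.984). For Dnmt3b it was Gm6434 and Pde1b (0.997 each). For Dnmt1, 92 genes were tied at 1.00, and for Dnmt3a 22, Dnmt3l 28, Tet3 21 and Uhrf1 31 genes were tied.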

How the data were processed

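The 8 genes, the other pathway genes and the letters searched were chosen with earlier results of these data known. Per the labels and the study's methods, Bowtie2 placed the reads on mm9, and MACS1.4 found peaks relative to input DNA with a band width of 150. What the authors deposited is 1 peak list for each of the 5 TFs in each culture, with positions and a score per peak (-10 log10 of the MACS p-value). The only sequenced input was of the EpiSC culture, so the activin-free lists have no input of their own culture. The input was not analysed here. As the lists hold no reads or coverage, the depth of the libraries stays unknown and the calls were used as they stand.

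Genes and TSSs were taken from GENCODE vM1 and bases from NCBIM37, which is mm9. Positions are counted from 1. A peak was assigned by its midpoint, and overlap was counted from 1 shared bp. Density is peaks per 100 kb of window, with exact Poisson intervals, shares have Wilson intervals, and log2 ratios between cultures have exact binomial intervals of the 2 counts, all at 95%. The binomial intervals take the 2 counts as independent and ignore that peaks were shared between cultures. With 1 library per group no test was made. The named peaks were, for each gene, the highest-scoring ones, those at its TSSs, sites shared by 3 or more TFs and the highest-scoring one of 1 culture only. The counting steps were tested on simulated data. Calculations used Python 3.11.15, numpy 2.4.6, pandas 2.3.3, scipy 1.17.1 and matplotlib 3.10.9. Alternatives are given in the closing section.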

Additional observations from a re-analysis of the deposited data

Results flagged for a closer look

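The relative change in peak number between cultures had opposite signs for OTX2 and SOX2 near the 8 genes, with a log2 ratio of -0.41 (95% interval -0.836 to 0.0100) for OTX2 (88 peaks in activin-free EpiSCs against 106 in EpiSCs) and 0.33 (-0.641 to 1.35) for SOX2 (26 against 15). Both intervals included 0, and the difference was not tested, since each TF has 1 library per culture. With a score of at least 100 the ratios were -0.59 and -0.13, and with the 50000 highest-scoring peaks of either list -0.52 and 0.11.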

How the results depend on the processing

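No paired analysis was possible because each TF has 1 library per culture and no result comes from a test. For the same reason no replicate could be left out. Numbers of peaks (353 in EpiSCs, 344 in activin-free EpiSCs) became 234 and 229 with a score of at least 100, 187 and 163 when each list was limited to its 50000 highest-scoring peaks, 220 and 211 with a flank of 20 kb, 550 and 536 with 100 kb, and 146 and 148 when the nearest TSS had to be that of the gene. In the last setting the ZIC2 density relative to all genes was 2.25 and 2.38. The POU3F1 density in EpiSCs was 0 with a score of at least 100, the 50000 highest-scoring peaks, the 20 kb flank and the nearest TSS, and in activin-free EpiSCs 0 with the 50000 highest-scoring peaks and the nearest TSS. Overlap with another TF (24.1% and 22.7%) was 7.93% and 10.5% when 50% of both peaks had to be shared, and in activin-free EpiSCs 16.6% with a score of at least 100 and 17.2% with the 50000 highest-scoring peaks. Overlap with the other culture (80.7% and 84.6%) was 85.5% and 90.8% with a score of at least 100, and 74.5% and 76.5% with 50% of both peaks shared. With the 50000 highest-scoring peaks it was 93.3% in activin-free EpiSCs. The log2 ratio between cultures changed sign for SOX2 (-0.13 with a score of at least 100), ZIC2 (-0.10 with the 50000 highest-scoring peaks) and POU5F1 (-0.02 with the 20 kb flank and -0.22 with the nearest TSS), and the cause was not tested. For OTX2 it stayed below 0 in the 6 alternatives run, between -0.59 and -0.25. It could not be given for POU3F1 where a list had 0 peaks. Pairs of gene and TF at a TSS fell from 11 and 8 to 5 and 5 with the 5' TSS alone.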
